A study of Arabidopsis thaliana with 12 samples.

Results

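The nuclei with a 4C DNA content were compared with the class on each side of them, 2C and 8C, to ask which transcripts of the root cortex were higher or lower at this DNA content than at both its neighbours. For each probe set the mean log2 signal of the 3 arrays of 4C was taken, and the average of the 2C and 8C class means was subtracted from it. The 9 arrays of 2C, 4C and 8C, of 12 in the series, enter this difference. The 3 arrays of the 16C class add to the estimate of the spread, and their levels are given beside the results.

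All classes came from 1 line, Arabidopsis thaliana pCO2:YFP-H2B in the Col-0 ecotype, whose histone H2B is tagged with a yellow fluorescent protein and driven by a promoter active in the root cortex. Whole roots of 5-day-old seedlings kept in continuous light were chopped, and the fluorescent nuclei were sorted by DAPI staining into 2C, 4C, 8C and 16C. No treatment and no mutant was involved, and every class carried the reporter. RNA was extracted from nuclei and not from whole cells, went through 2 rounds of amplification and was measured on ATH1 arrays. The 3 arrays of a class are biological replicates by the labels, which do not name their plants or sorts.

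A 2C nucleus has not yet replicated its DNA. A 4C nucleus has replicated it once and may stand before mitosis, in G2, or may be on its way into the endocycle, in which DNA is copied again without division. An 8C nucleus has entered the endocycle. Genes for mitosis, such as those for Aurora kinases and the spindle checkpoint, are known to be transcribed mainly in G2 and mitosis, whereas replication genes are known to peak in S phase.

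Of 22746 probe sets, 13513 were assigned to a single gene in the annotation used here, 503 to several and 8730 to none. Of the single-gene probe sets 1580 carried a gene symbol of their own, and the others are named by locus code only, with no role given. The arrays differed in how well they matched their class. Across probe sets, pairs of 4C arrays reached r of 0.970 to 0.983, pairs of 8C arrays 0.974 to 0.981, and pairs of 2C arrays 0.937 to 0.974. The lowest values belong to 2C replicate 1. In the 16C class 2 arrays, replicates 1 and 2, correlated at 0.996. Results that rest on these arrays are given below with and without them. The cortex of the labels was seen through few markers. JKD, a transcription factor of the ground tissue, had class means of 5.51 ± 0.17 in 2C, 5.93 ± 0.13 in 4C and 6.34 ± 0.12 in 8C (log2, SD, n = 3). AT1G62500 was entered in the cortex list by locus code as CO2, the name in the reporter's promoter, a pairing the annotation used here does not give. It lay near the low end of the scale, between 3.78 and 4.70 on the 9 arrays. AT1G09750, entered in the same way, ran opposite to JKD, with 4.86 ± 0.86 in 2C, 4.68 ± 0.28 in 4C and 4.32 ± 0.03 in 8C. Its 2C arrays were scattered from 4.04 to 5.75. Of the stele and root cap marker lists, 0 genes had a probe set of their own here, so the presence of those cells was not tested.

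Among the calls and the large changes, rises in 4C outnumbered falls. In limma, with Benjamini-Hochberg adjustment over all probe sets and a threshold of 0.05, 26 probe sets rose in 4C against the average of its neighbours (0.114% of those tested) and 5 fell (0.022%). The sizes were unequal as well. A rise of at least 1 log2 unit was measured for 244 probe sets and a fall of that size for 26, and a rise of at least 2 log2 units, which is a 4-fold change, for 25 against 0. Small differences leaned the other way, since 12582 probe sets lay below 0 and 10164 above it, with a median of -0.02. At an unadjusted p under 0.05 in limma 1278 probe sets were higher in 4C and 1345 lower. RMA, the method that made the deposited signals, makes the arrays' distributions alike, so a change shared by all transcripts cannot be seen. In sorted nuclei a smaller share of nuclei expressing a gene and less RNA per nucleus cannot be told apart either.

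**Figure D1:**
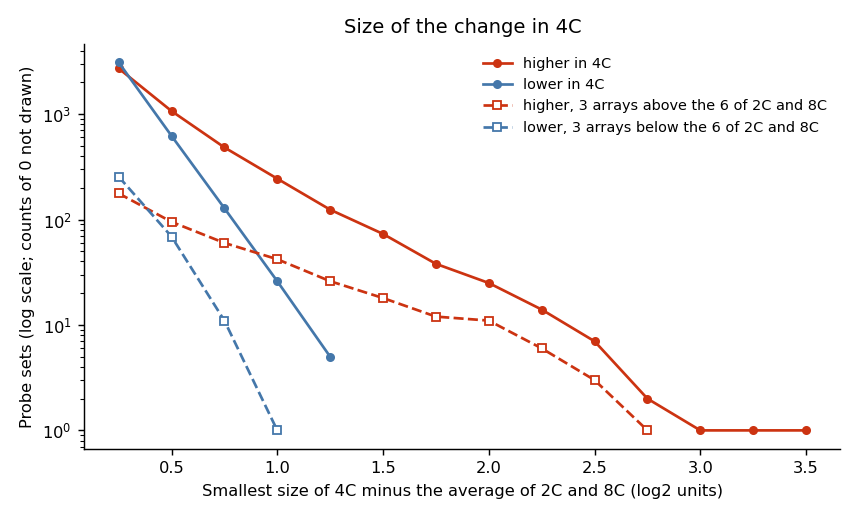
Number of probe sets (log scale) whose 4C mean differed from the average of 2C and 8C by at least the size on the horizontal axis (log2 units), for higher (red) and lower (blue) values, with open squares for those whose 3 arrays of 4C lay beyond all 6 others. At 1 log2 unit the counts were 244 and 26, and no probe set was lower by 1.5 or more.

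The direction of the calls depended on the scaling in its proportions but not in its majority. Rises made up 83.9% of the 31 calls. With cyclic loess in addition they made up 95.5% (42 rises and 2 falls), and with the arrays shifted to reference genes 98.9% (87 rises and 1 fall). The number of calls was not stable against single arrays. It rose to 284 without 2C replicate 1 and to 117 without 4C replicate 3. It fell to 8 without 8C replicate 2, to 12 without 16C replicate 3, and to 0 without 4C replicate 1, 8C replicate 1, 8C replicate 3, 16C replicate 1 or 16C replicate 2, where 1700 to 2577 probe sets had an unadjusted p under 0.05 in limma. It was also 0 when only the 9 arrays of the comparison were fitted, where 2080 probe sets passed an unadjusted p of 0.05 against 2623 of the fit to 12 arrays. All 31 calls kept their sign in each of the 26 alternative settings in which they were measured. The settings refit the arrays in which the calls were chosen, and several leave the change itself as it was. The kept sign is therefore no independent check.

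**Figure D2:**
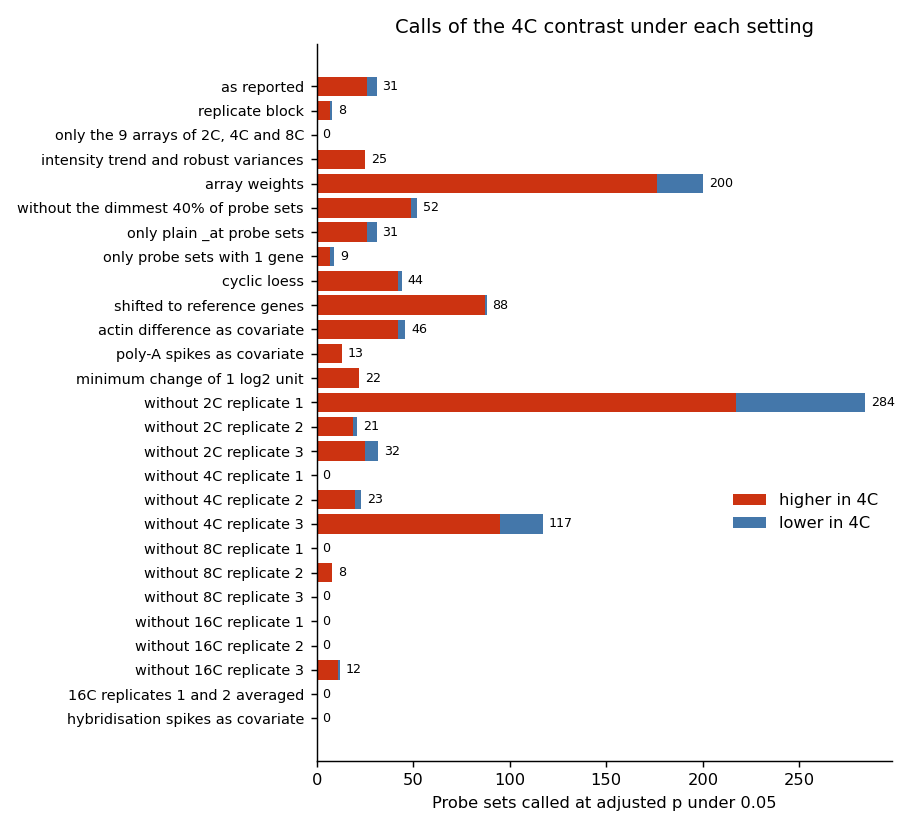
Number of probe sets called (adjusted p under 0.05 in limma) in the 4C contrast under each setting, split into higher (red) and lower (blue) in 4C, with the total beside each bar. The total was 31 as reported and ran from 0 to 284 over the settings.

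Most rises rested on the step from 4C to 8C. All 26 passed the test of 4C against 8C, which 5.17% of all probe sets passed upwards, and 6 of them also passed the test of 4C against 2C, which 0.352% passed upwards. In 25 of the 26 the difference from 8C was larger than that from 2C. The 2 differences share the 4C arrays, and each is given on its own below. In 16 of the 26 the 3 arrays of 4C lay above all 6 arrays of 2C and 8C, which 239 probe sets did (1.05%). Probe sets with all 3 arrays of 4C below the 6 others were more numerous, with 347 (1.53%), and 2 of the 5 called falls were among them. The remaining rises include 4 whose 4C mean lay below that of 2C, so that 4C was between its neighbours and nearer to the higher one.

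**Figure D3:**
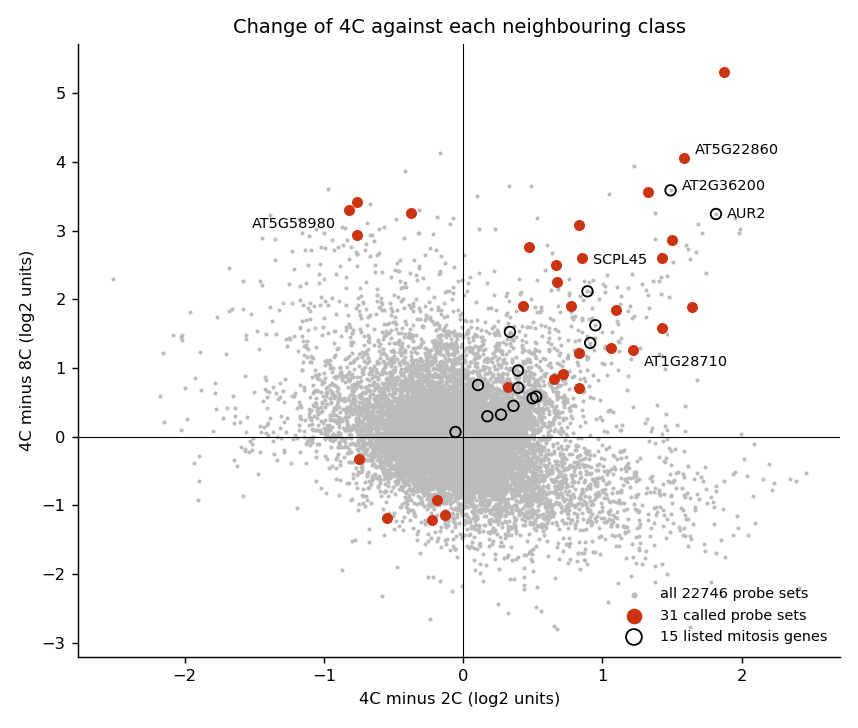
Difference of 4C from 2C (horizontal) and from 8C (vertical), both in log2 units, for all 22746 probe sets (grey), the 31 called ones (red) and the 15 listed mitosis genes (open circles). Both axes share the 4C arrays; all 26 called rises lie above 0 on the vertical axis, and 4 of them lie left of 0 on the horizontal one.

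Among single-gene probe sets 12 rose and 3 fell. The clearest pattern of a signal high in 4C alone belonged to AT1G28710 and AT1G65900, both known here by locus code. AT1G28710 measured 6.57, 6.77 and 6.68 (log2 signal) in 2C, 8.25, 7.48 and 7.95 in 4C and 6.59, 6.52 and 6.79 in 8C. The 2C and 8C arrays covered the same narrow range and every 4C array lay above it. Its rise was 1.24 ± 0.15 log2 units (SE, limma adjusted p = 0.0196), with 1.22 against 2C (adjusted p = 0.0188) and 1.26 against 8C (adjusted p = 0.00331), and its 16C mean of 6.56 lay at the level of the neighbours. AT1G65900 measured 4.70, 4.46 and 4.50 in 2C, 5.34, 5.29 and 5.16 in 4C and 4.38, 4.45 and 4.22 in 8C. It rose by 0.81 ± 0.09 (adjusted p = 0.0196) from a signal near the low end of the scale, and passed both single steps as well. When the fit took the 3' minus 5' signal of actin as a covariate, 0 probe sets were called and past both steps, so neither gene kept this. AT1G28710 was called in 15 of 26 alternative settings and AT1G65900 in 16 of 25. The other 4 probe sets that passed both steps had no gene assigned.

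SCPL45 and TBL36 were the called genes with a symbol. SCPL45 encodes a serine carboxypeptidase-like protein, of a plant family that includes peptidases and acyltransferases. Its log2 signals were 8.96, 8.03 and 8.57 in 2C, 9.27, 9.46 and 9.40 in 4C and 6.45, 7.04 and 6.83 in 8C. The 4C arrays lay above all others, close to the highest 2C array and more than 2 log2 units above every 8C array. SCPL45 rose by 1.73 ± 0.19 log2 units, a 3.31-fold change on this scale (SE, limma adjusted p = 0.0196), of which the difference from 8C was 2.60 (adjusted p = 0.000416) and that from 2C was 0.86 (adjusted p = 0.118). It was called in 17 of the 26 alternative settings.

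TBL36 belongs to the TRICHOME BIREFRINGENCE-LIKE family, whose characterised members add acetyl groups to polysaccharides of the cell wall. It measured 8.56, 7.71 and 8.19 in 2C, 8.70, 9.0 and 8.78 in 4C and 6.39, 6.95 and 6.36 in 8C. The groups did not overlap, but the distance from 4C to the nearest 2C array was small. Its rise was 1.47 ± 0.19 log2 units (limma adjusted p = 0.0239), with 2.26 against 8C (adjusted p = 0.000711) and 0.68 against 2C (adjusted p = 0.194). The 16C means of both genes, 7.5 for SCPL45 and 6.99 for TBL36, lay below 2C and 4C and above 8C. TBL36 was called in 15 of the 26 alternative settings.

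The families of both genes were looked at after these values were seen, and no other member was called. Of 29 measured SCPL genes 22 lay above 0 with a median change of 0.11, and SCPL45 was the 1 called. The next in size was scpl46, at 1.19 ± 0.26 (limma adjusted p = 0.108), whose 4C arrays at 5.54, 5.77 and 6.94 lay above the highest of the others, 5.00. Of 23 TBL genes 14 lay above 0, with a median of 0.21 and 1 called. TBL34 differed by 0.93 ± 0.21 (adjusted p = 0.126), with all its 4C arrays above the 6 others. Over all 13286 genes 45.1% lay above 0, with a median of -0.02. At an unadjusted p under 0.05 in limma 5 SCPL and 4 TBL genes were higher, as were 5.32% of all genes. By the same measure 0 SCPL genes and 1 TBL gene were lower, as were 5.43% of all genes. The beta glucosidase and TON1 recruiting motif families were also looked at after values were seen, and 0 members were called. Of 22 beta glucosidases 10 lay above 0, with a median of -0.06. Of 14 TON1 recruiting motif genes 9 did, with a median of 0.05.

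Among the called genes known by locus code, the largest rises were those of AT5G22860 and AT2G22620. AT5G22860 measured 8.91, 7.09 and 9.0 in 2C, 9.85, 10.05 and 9.86 in 4C and 5.32, 6.57 and 5.67 in 8C. The 3 arrays of 4C lay within a fraction of a log2 unit of each other, whereas 1 array of 2C lay well below its class. Its rise was 2.82 ± 0.43 log2 units, or 7.08-fold (SE, limma adjusted p = 0.0487), and the difference from 8C, 4.06 (adjusted p = 0.00178), was larger than that from 2C, 1.58 (adjusted p = 0.184). AT2G22620 measured 6.71, 5.89 and 7.63 in 2C, 8.23, 7.87 and 8.63 in 4C and 5.11, 5.68 and 5.35 in 8C. All 4C arrays lay above the others, and the rise was 2.18 ± 0.32 (adjusted p = 0.0431). AT5G22860 was called in 12, AT2G22620 in 11 and AT5G66290 in 9 of the 26 alternative settings. AT5G66290 rose by 0.75 ± 0.11 (adjusted p = 0.0487), with 7.32, 7.34 and 7.10 in 4C against at most 6.81 in 2C and 6.45 in 8C.

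**Figure D4:**
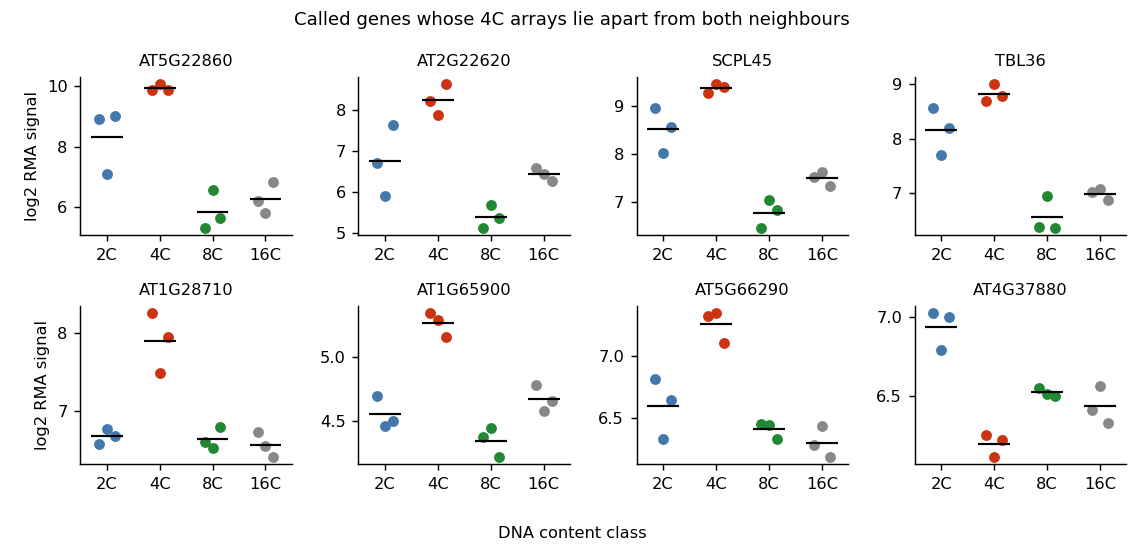
Log2 RMA signal of the 8 called genes whose 3 arrays of 4C lay beyond all 6 arrays of 2C and 8C, by DNA content class, with 1 point per array and a line at the class mean. In 7 genes the 4C arrays are the highest and in AT4G37880 they are the lowest; the 16C arrays, which the contrast leaves out, lie below the 4C arrays in the 7 rises.

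Of the remaining called rises among single genes, none had all its 4C arrays above those of 2C, and these were named after their values were seen. AT5G06670 rose by 1.95 ± 0.30 log2 units (SE, limma adjusted p = 0.0487). Its lowest 4C array, at 7.63, lay below the highest of 2C, at 7.78. AT1G65370 rose by 1.62 ± 0.19 (adjusted p = 0.0196), AT3G19300 by 1.59 ± 0.23 (adjusted p = 0.041) and AT1G32190 by 1.34 ± 0.21 (adjusted p = 0.0487). Of the 26 alternative settings AT1G65370 was called in 18, AT3G19300 in 12, AT5G06670 in 10 and AT1G32190 in 8. In AT5G58980 the 4C class was not the highest. It measured 11.62, 11.40 and 11.50 in 2C, 11.01, 10.89 and 10.33 in 4C and 7.59, 8.00 and 7.84 in 8C, so that every 4C array lay below every 2C array and its call of 1.08 ± 0.16 (adjusted p = 0.041) came from the drop to 8C. The largest rise of all, 3.59 ± 0.55, was that of a probe set without an assigned gene, whose means were 9.62 in 2C, 11.5 in 4C and 6.18 in 8C.

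The falls were smaller. AT4G37880 was the 1 single-gene fall whose arrays lay apart, with 7.02, 6.79 and 7.00 in 2C, 6.25, 6.11 and 6.22 in 4C and 6.55, 6.51 and 6.50 in 8C. It fell by 0.54 log2 units (SE 0.08, limma adjusted p = 0.0487), passed the test against 2C at -0.74 (adjusted p = 0.0129) and missed it against 8C at -0.33 (adjusted p = 0.0587). It was called in 4 of the 26 alternative settings. AT1G78200 fell by 0.72 (SE 0.09, adjusted p = 0.0196) and AT5G10740 by 0.63 (SE 0.09, adjusted p = 0.041), both named after their values were seen and both with 4C arrays that overlapped those of 2C. Among genes with a symbol, UGT85A5, a UDP-glucosyl transferase, came closest. It measured 6.36, 6.17 and 6.16 in 2C, 5.40, 5.41 and 5.69 in 4C and 5.97, 6.10 and 5.94 in 8C, which is a difference of -0.62 ± 0.11 (adjusted p = 0.0769). It passed each single step, at -0.73 against 2C (adjusted p = 0.0433) and -0.50 against 8C (adjusted p = 0.0373).

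The 16C class gives levels of the called rises that did not enter the contrast. In 26 of 26 all 3 arrays of 16C lay below all 3 of 4C, and in 22 the 16C mean lay between those of 8C and 4C. It lay below the 2C mean in 23. The probe sets were chosen for high values in 4C, so a lower value in another class is a description and not a test. The same counts were not made over all probe sets, so whether they are particular to these rises was not tested.

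The mitosis genes that could be named all lay higher in 4C than in either neighbour on average, and none passed the test over all probe sets. Of 73 genes listed for mitosis and cytokinesis, 7 had a probe set and a name in the tables used here, and 15 could be found when locus codes alone were accepted. Of the 7, 7 had a 4C mean above both neighbouring class means, against 22.2% of all genes. In limma 0 were called, and 6 were higher at an unadjusted p under 0.05, as were 5.32% of all genes. The list was chosen with earlier results of these data known, so these counts are a description and not a test. Their median difference was 0.55 log2 units beside -0.02 for all 13286 genes. With locus codes, 15 of 15 lay above 0 and 14 above both class means. The count above 0 stayed at 7 of 7 in each alternative that kept the 7, other than with the hybridisation spikes as a covariate, where it was 6. The mean signal of the 7 was 5.97 in 4C against 5.32 in 2C, 4.84 in 8C and 5.08 in 16C. The array means of the 7 genes overlapped between 4C, at 5.67 to 6.28, and 2C, at 5.09 to 5.69, and not between 4C and 8C, whose highest was 5.05.

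The Aurora kinases, which act on chromosomes, the spindle and the plane of division, differed in size. AUR2 measured 7.65, 6.07 and 7.82 in 2C, 9.45, 8.14 and 9.39 in 4C and 5.16, 5.76 and 6.33 in 8C. Every 4C array lay above every array of both neighbours, and 4C replicate 2 was the lowest of the 4C arrays, as 2C replicate 2 was of the 2C arrays. The difference was 2.53 ± 0.45 log2 units, or 5.78-fold (SE, limma adjusted p = 0.0758), made up of 3.24 against 8C (adjusted p = 0.00588) and 1.81 against 2C (adjusted p = 0.151). In 16C AUR2 stood at 7.58, 7.52 and 6.72, above every 8C array. It was called in 5 of 26 alternative settings, among them without 2C replicate 1 (adjusted p = 0.0368).

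AUR1, the close relative of AUR2, measured 8.02, 7.05 and 6.89 in 2C, 7.86, 8.02 and 7.09 in 4C and 5.98, 6.06 and 6.34 in 8C. Its 2C and 4C arrays covered nearly the same range, and the difference of 0.93 ± 0.26 (limma adjusted p = 0.199) came from 8C, at 1.53 (adjusted p = 0.013), with 0.34 against 2C (adjusted p = 0.666). AUR3, which lies at pericentromeric chromatin, was low. It measured 5.32, 5.25 and 4.40 in 4C, 1 of which lay inside the range of the neighbours, 4.31 to 4.59, and its difference was 0.55 ± 0.18 (adjusted p = 0.269).

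The spindle checkpoint, which holds mitosis until chromosomes are attached, was represented by BUBR1 and BUB3.1. BUBR1 measured 5.33, 4.35 and 4.41 in 2C, 6.34, 5.36 and 5.13 in 4C and 4.01, 4.53 and 4.18 in 8C. Only 2C replicate 1 overlapped with the 4C arrays, and the difference was 1.14 ± 0.28 (limma adjusted p = 0.158), with 1.37 against 8C (adjusted p = 0.029). BUB3.1 differed by 0.53 ± 0.28 (adjusted p = 0.512). KINESIN-12B, a motor of the phragmoplast that builds the new cell wall, differed by 0.30 ± 0.12 (adjusted p = 0.388), and HTR12, the histone H3 of centromeres, by 0.24 ± 0.10 (adjusted p = 0.424). The signals of KINESIN-12B and HTR12 stayed at or below 4.55 on every array, at the low end of the scale.

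Among the genes entered by locus code alone, AT2G36200 had the largest difference of the list, 2.54 ± 0.43 (limma adjusted p = 0.0692). It measured 8.51, 7.21 and 6.44 in 2C, 9.67, 8.83 and 8.13 in 4C and 5.54, 5.38 and 4.95 in 8C. The 4C arrays overlapped with 1 array of 2C and with none of 8C. AT1G63100 differed by 1.51 ± 0.32 (adjusted p = 0.104) and AT3G57060 by 0.68 ± 0.13 (adjusted p = 0.0906). AT3G54630 was the 1 of 15 whose 4C mean did not exceed both neighbours, at 0.01 ± 0.21.

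Further genes, which belong to no list and were named after their values were seen, are given as single values, and none of them passed the test. TOPII, the DNA topoisomerase that untangles sister chromatids, measured 6.35, 5.57 and 5.06 in 2C, 8.05, 7.18 and 6.15 in 4C and 4.78, 4.80 and 4.78 in 8C. Its difference was 1.90 ± 0.37 (limma adjusted p = 0.0903), and 1 of the 4C arrays lay inside the 2C range. 3xHMG-box2, a high mobility group protein bound to mitotic chromosomes, measured 6.88, 5.26 and 4.18 in 2C, 8.04, 7.34 and 6.08 in 4C and 4.04, 4.40 and 4.1 in 8C, a difference of 2.34 ± 0.54 (adjusted p = 0.124). ATSMC2, a condensin subunit, differed by 1.01 ± 0.28 (adjusted p = 0.194). FU, the FUSED kinase needed for cytokinesis, differed by 1.51 ± 0.32 (adjusted p = 0.104).

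In several of these genes the replicates of a class were widely spread in 2C and 4C and close together in 8C. The SD of 3xHMG-box2 was 1.36 in 2C, 0.998 in 4C and 0.19 in 8C, and that of TOPII was 0.65, 0.95 and 0.01 in that order. Without 2C replicate 1, AUR1 (limma adjusted p = 0.0353), AUR2, BUBR1 (adjusted p = 0.0431), TOPII (adjusted p = 0.0329), 3xHMG-box2 (adjusted p = 0.0208) and FU (adjusted p = 0.0353) were called, together with AT2G36200 (adjusted p = 0.00766). Under that setting, in which 0.954% of all probe sets were called higher, 3 of the 7 named mitosis genes passed, and 7 of 15 with locus codes. Array weights, with 0.774%, gave the same counts. They gave 2C replicate 1 the lowest weight, 0.358, so these settings are not separate checks. Both counts were the highest of all alternatives. Of the 7, 1 was called with the shift to reference genes, with the actin covariate or without 4C replicate 3. Leaving out the dimmest 40% of probe sets left 3 of the 7, and 1 was called. In every other alternative 0 of the named mitosis genes were called.

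**Figure D5:**
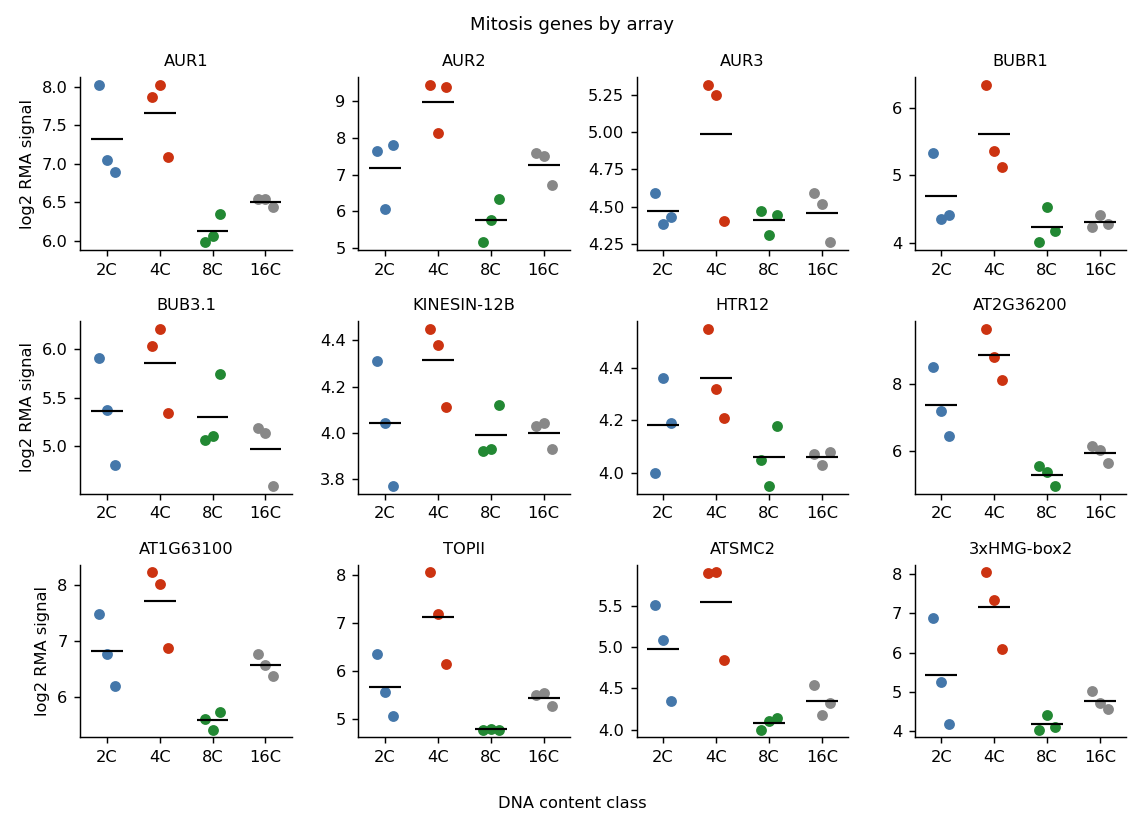
Log2 RMA signal of 12 genes of mitosis, chromosome condensation and the listed locus codes, by DNA content class, with 1 point per array and a line at the class mean. In all 12 the 4C mean is the highest, and of these only AUR2 has its 3 arrays of 4C above all 6 arrays of 2C and 8C. The 12 are a selection, and TOPII, ATSMC2 and 3xHMG-box2 were chosen after their values were seen. Listed locus codes not drawn include AT3G54630, whose 4C mean lies below that of 2C. They also include AT4G14330, whose 4C arrays lie above all 6 others.

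The replication genes did not share this shape. Of 38 listed, 3 had a probe set and a name. The contrast lay below 0 in 3 of 3, as it did in 7294 of all 13286 genes, with a median of -0.47. In limma 0 were called and 1 was lower at an unadjusted p under 0.05, as were 5.43% of all genes. PRL, the MCM7 subunit of the replicative helicase, measured 8.23, 7.96 and 6.85 in 2C, 5.64, 5.55 and 5.38 in 4C and 4.27, 4.34 and 4.30 in 8C. The 3 groups followed each other without overlap, with 4C in the middle. PRL was lower in 4C than in 2C by 2.16 log2 units (limma adjusted p = 0.0129) and higher than in 8C by 1.22 (adjusted p = 0.0249), so the contrast with their average was -0.47 ± 0.24 (adjusted p = 0.508). POLA3, a subunit of DNA polymerase alpha and primase, differed from 2C by -1.78 (adjusted p = 0.0435) and from 8C by 0.40 (adjusted p = 0.471). ICU2 encodes the catalytic part of the same polymerase. It had class means of 5.38 ± 0.70, 4.32 ± 0.21 and 3.87 ± 0.13 (SD, n = 3).

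Most of the named histones and tubulins had a 4C mean closer to that of 2C than to that of 8C. HTB11, TUA1 and TUB9 lay closer to 8C, and TUB1 lay above both neighbours. Of 33 listed core and linker histones 5 had a named probe set, 4 of them above 0, with 0 called, 1 at an unadjusted p under 0.05, a median of 0.18 and 0 with a 4C mean above both neighbours. HTB4, an H2B histone, had class means of 8.21 ± 0.41 in 2C, 8.00 ± 0.14 in 4C and 6.85 ± 0.17 in 8C (SD, n = 3), and its 4C mean exceeded that of 8C by 1.15 (limma adjusted p = 0.00745). Of 17 listed tubulin genes 7 were measured. Of these 5 lay above 0, as did 45.1% of all genes, with a median of 0.28 and 0 called. Of the endocycle list, 2 of 22 genes were measured by name. SIM, a cyclin-dependent kinase inhibitor that promotes the endocycle, measured 6.50, 6.09 and 6.41 in 4C, inside the range of 2C, and differed by -0.15 ± 0.26 (adjusted p = 0.876). BIN4, part of the plant topoisomerase VI complex, differed by -0.04 ± 0.27. RAD5, the 1 repair gene measured, differed by -0.20 ± 0.11 (adjusted p = 0.527), and BBM, a transcription factor of the root meristem, by -0.25 ± 0.14 (adjusted p = 0.548).

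Genes with other roles that came near the threshold were named after their values were seen. PIR121, a subunit of the SCAR/WAVE complex that directs actin assembly, differed by 0.84 ± 0.14 (limma adjusted p = 0.0634), and ACLA-2, a subunit of ATP-citrate lyase in cytosolic acetyl-CoA supply, by 1.3 ± 0.23 (adjusted p = 0.0708). ULT1, a chromatin regulator, differed by 0.86 ± 0.16 (adjusted p = 0.0769). Its 4C arrays, at 8.66, 8.27 and 8.76, lay above the highest of the neighbours, 8.18. SPK1, which activates the small GTPases that shape plant cells, differed by 1.04 ± 0.22 (adjusted p = 0.102). This came from 8C, at 1.84, with 0.23 against 2C. VPS2.2, a subunit of the ESCRT complexes that sort membrane proteins, differed by 2.43 ± 0.58 (adjusted p = 0.147). Its arrays were scattered, with 9.03, 8.59 and 6.78 in 4C against 8.07, 6.89 and 5.50 in 2C. TRM33, of the TON1 recruiting motif family that acts on cortical microtubules, differed by 1.03 ± 0.23 (adjusted p = 0.122). TPLATE, an endocytosis adaptor first described at the cell plate, differed by 0.55 ± 0.15 (adjusted p = 0.201), again with every 4C array above the 6 others.

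On the low side, 4 of the 347 probe sets with all 3 arrays of 4C below the 6 others are named as examples. These too were chosen after their values were seen, and none passed the test. D2HGDH, a mitochondrial dehydrogenase of D-2-hydroxyglutarate, differed by -0.41 ± 0.08 (limma adjusted p = 0.0848). UPF3, a factor of nonsense-mediated RNA decay, differed by -0.60 ± 0.12 (adjusted p = 0.0979). ARA6, a Rab GTPase of endosomes, measured 6.55, 6.53 and 6.63 in 4C against 6.96 to 7.17 in 2C and 6.80 to 7.30 in 8C, a difference of -0.50 ± 0.11 (adjusted p = 0.11). IDH-V, a subunit of the mitochondrial isocitrate dehydrogenase, differed by -0.52 ± 0.12 (adjusted p = 0.128).

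Markers of other tissues did not pass the test. GSO1, a receptor kinase of the endodermis, was the 1 measured of 11 listed there. It differed by 0.63 ± 0.17 (limma adjusted p = 0.194, unadjusted p = 0.00424). Its 4C mean of 5.68 lay above those of 2C, 4.82, and 8C, 5.28, with arrays of 4C and 8C overlapping. On the epidermis and root hair list 2 of 14 genes were measured by name. These were the root hair expansins EXPA7 and EXPA18, which differed by -0.04 and -0.03. Of the other entries on the epidermis and root hair list, found by locus code, AT4G26010 differed by -0.18 ± 0.20 (adjusted p = 0.788). AT1G64390 differed by 0.54 ± 0.21 (adjusted p = 0.368). Its symbol here is GH9C2, whereas the list names GH9C1, so it is not taken as a marker. Of 8 genes on the lateral root list 4 were measured, and all 4 lay below 0, with a median of -0.27. Over all 13286 genes 7294 lay below 0. Of 10 genes on the shoot list LHCB4.1, a photosynthesis gene, was the 1 measured. It differed by 0.54 ± 0.36 (adjusted p = 0.612). Of 69 plastid transcripts 65 lay below 0, against the same 7294 of 13286 genes, with a median of -0.30 and 0 called. The median signal over these transcripts varied between the 4C arrays from 6.0 to 8.01, however.

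The genes most like AUR2 in their levels were known by locus code only. Over the 12 arrays, the highest Pearson correlations among single-gene probe sets were those of AT1G03920 (r = 0.976), AT1G43020 (r = 0.967), AT1G31720 (r = 0.964), AT5G65530 (r = 0.954) and AT5G18460 (r = 0.951). These are descriptions, and the 12 points share libraries and classes. AT1G43020 measured 6.29, 4.48 and 5.84 in 2C, 7.65, 6.68 and 8.23 in 4C and 3.94, 4.71 and 4.84 in 8C, with all 4C arrays the highest and replicate 2 the lowest in both 2C and 4C, as in AUR2. Its difference was 2.50 ± 0.43 (limma adjusted p = 0.0698).

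The control probe sets included 1 measure that set 4C apart. The hybridisation spikes, added after labelling, averaged 10.1 to 10.3 on the 3 arrays of 4C and 9.57 to 9.85 on the 6 others (exact two-sided permutation test, p = 0.0238, the smallest that 84 assignments allow, adjusted p = 0.119 over 5 measures). With their mean as a covariate 0 probe sets were called in limma (1024 at an unadjusted p under 0.05). The median change of the 26 rises was then 1.34 log2 units, against 1.46 without the covariate, and its median standard error was 0.52 against 0.19. The part of this measure in the calls was not tested. Other control measures ran between the classes, so that a comparison with both neighbours together does not show it. The 3' minus 5' signal of actin, a measure of how far transcripts were shortened, was 4.38 to 4.70 in 2C, 3.83 to 4.03 in 4C and 3.34 to 3.56 in 8C, with no overlap between the classes. Its mean was 3.91 in 4C and 3.99 over both neighbours (exact permutation p = 0.786). The poly-A spikes averaged 10.9 ± 0.52 in 2C, 10.5 ± 0.53 in 4C and 9.05 ± 1.1 in 8C (SD, n = 3), and 1 array of 8C, at 10.3, lay inside the 4C range (4C against both neighbours, exact permutation p = 0.571). Both measures thus moved along the step from 4C to 8C on which most rises rested, and their part in the rises was not tested. The 3' minus 5' signal of GAPDH was 5.20 in 4C against 4.95 (exact permutation p = 0.310). The array medians of the plastid transcripts averaged 6.97 against 7.37 (exact permutation p = 0.500).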

How the data were processed

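The deposited values are log2 signals of 22746 ATH1 probe sets, beside 64 control probe sets left out of the tests, which the authors, per the submitters' processing notes, made with RMA (version not given in the sources used here). Array medians of 5.22 to 5.36 show the log2 scale. No scanner files or detection calls were used. Probe sets were named through the platform annotation and the TAIR10.1 gene table, which matched 13436 of 13513 single-gene probe sets.

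Arrays were grouped by DNA content. The R package limma (version 3.58.1, R 4.3.3) fitted a linear model to the 12 arrays, with the 4 classes sharing 1 spread per probe set. Benjamini-Hochberg adjustment ran over the 22746 probe sets. Class errors are SDs of 3 arrays, errors of changes are moderated standard errors, and 3 arrays per class limit the precision. A p-value here reflects only how arrays of a class vary. Control measures were compared with an exact permutation test.

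Named genes were, by rule, the called single-gene probe sets whose 4C arrays lay apart, up to 12 in each direction, with the member of smallest p of each list and a few genes of mitosis and replication. A list gene counted where a table paired its locus with a listed name, and the brightest probe set stood for a gene. Lists were described by counts and medians, without a test. The members and lists were chosen with earlier results of these data known. The rule also covered genes found by protein motif and promoter motifs, for which no sequence was used here, and these were not analysed. Alternatives covered the replicate block, array weights, variance models, filters, scaling, covariates and leaving out each array.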

Additional observations from a re-analysis of the deposited data

How the results depend on the processing

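Counts of calls (all, higher, lower, higher with arrays apart, lower with arrays apart, past both single steps) were 31, 26, 5, 16, 2 and 6 as reported. Deviations of same-numbered replicates correlated at 0.0998, 0.41 and 0.435 between 4C and 2C and at 0.115, -0.347 and -0.171 between 4C and 8C, so the numbers were not taken to pair the samples; a replicate block gave 8, 7, 1, 3, 0 and 3, and called AT2G36200 (limma adjusted p = 0.0416). Array weights gave 200, 176, 24, 48, 11 and 10, and leaving out the dimmest 40% of probe sets gave 52, 49, 3, 25, 1 and 5. Single-gene probe sets alone gave 9, 7, 2, 4, 0 and 2, the poly-A covariate 13, 13, 0, 7, 0 and 3, the actin covariate 46, 42, 4, 27, 1 and 0, and the shift to reference genes 88, 87, 1, 41, 0 and 9. Cyclic loess gave 42 higher and 2 lower, 1 of the latter apart. Intensity trend and a minimum of 1 log2 unit left 0 lower calls in limma. Counts were 0 with the 9 arrays alone (2080 at an unadjusted p under 0.05), with the 16C replicates 1 and 2 averaged (2288) and with the hybridisation spikes as covariate (1024). The last pair was chosen after seeing the data. Leaving out 1 array gave 0 to 284, 0 to 217, 0 to 67, 0 to 132, 0 to 54 and 0 to 24 in the same order. The cause of these differences was not tested. Without 1 array, the change of SIM ran from -0.307 to 0.0598 (the latter without 2C replicate 1), of EXPA7 from -0.0892 to 0.00587 (without 8C replicate 2), of AT1G62500 from -0.00759 (without 4C replicate 2) to 0.334, and of JKD from -0.0576 to 0.0697. JKD was below 0 when 2C replicate 1 or 3, 4C replicate 2 or 8C replicate 3 was left out, and with the actin (-0.00886) or poly-A (-0.000302) covariate. With the hybridisation spikes AT5G46630 was 0.316 and ICU2 0.0768. Without 1 array, exact permutation p-values were 0.536 to 0.964 for actin, 0.286 to 0.929 for GAPDH, 0.321 to 0.857 for poly-A spikes, 0.0357 to 0.0714 for hybridisation spikes and 0.143 to 1 for plastid transcripts, with the sign turned for actin without 2C replicate 1 or 3 (0.964) and for plastid transcripts without 4C replicate 2 (1). Signals near 4 log2 units have no detection call, which limits what low genes show.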
